A study of Mus musculus with 7 samples.

Results

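The apical junction and cell polarity genes are a set of 40 genes whose products hold neural stem cells together at the ventricular surface of the embryonic cortex and tell them which side is apical. The members were listed by gene name, and a gene counted as measured where an array probe set carried its symbol alone. All 40 were measured, of 19938 genes in all, 37 under the listed symbol and 3 through a synonym (Pvrl1 as Nectin1, Pvrl3 as Nectin3 and Pals1 as Mpp5). Where a gene had several probe sets, as 2 members did, the brightest on average was used.

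Gene expression was measured on 7 Affymetrix arrays, 3 of Trnp1 knockdown cells and 4 of control cells. Cerebral cortices of C57BL/6 mouse embryos were electroporated on embryonic day 13, and 24 h later, on embryonic day 14, cells were sorted by the green fluorescent protein that marked transfection. The genotype is labelled Trnp1 knockdown in the first group and WT in the second, and sex was not determined. Trnp1 encodes a nuclear protein found in cortical progenitors. The comparison asks which transcripts differ 1 day after it is lowered. The labels call the samples biological replicates but do not say how many embryos each holds, so p-values measure the spread between these samples. They do not describe the knockdown construct further, nor name the construct of the controls, and the sorted cells hold transfected progenitors along with their progeny of that day.

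Radial glia, the stem cells of the embryonic cortex, are joined near the ventricle by a belt of adherens junctions, in which cadherins and nectins bind across cells and catenins and afadin tie them to actin. Polarity complexes sort the membrane. The PAR and aPKC complex and the Crumbs complex mark the apical side, and the Scribble complex works against them from the basolateral side. Inherited differences in apical membrane, and the angle at which the spindle divides it, are classic subjects of study in cortical progenitors because cells that lose their apical contact leave the ventricular zone. ERM proteins link the apical membrane to actin, and junctions also hold back YAP and TAZ, the transcriptional coactivators of the Hippo pathway.

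Trnp1 itself had log2 levels of 4.80, 4.85 and 4.55 in knockdown arrays, against 5.07, 4.999, 5.24 and 5.22 in control arrays. The groups did not overlap, in the direction of the labels (difference -0.40, SE 0.12, 75.8% of the control signal). An exact two-sided permutation test, with 35 ways to split the arrays, gave its smallest possible p of 0.0286, and limma's adjusted p was 0.825. Probe set medians lay between 4.40 and 4.61 across arrays, not far below the Trnp1 levels. RMA, the normalization used, narrows differences between dim probe sets, so the 75.8% describes the signal and not the transcript. Markers of radial glia, intermediate progenitors and neurons were bright on every array, with neuronal markers summing on the log2 scale to 12.1 to 12.7 in knockdown and 12.6 to 12.9 in control arrays. Some arrays also stood apart in markers of other cells. All 9 endothelial and mural markers were measured, and their signal summed to 10.8, 9.52 and 8.31 in knockdown replicates 1 to 3, against 7.79, 7.75, 7.41 and 10.1 in control replicates 1 to 4. The 6 microglial markers summed to between 8.88 and 11.8, highest in control replicate 4 and next in knockdown replicate 2. The choroid plexus marker Ttr was at 11.98 in knockdown replicate 2, against 9.86 in control replicate 3 and 12.55 in control replicate 4, and at 4.34 or less on the other arrays. Markers of ventral and GABA neurons summed to 10.3 in knockdown replicate 2, and to between 6.85 and 7.79 on the other arrays. The 3 measured erythroid markers, of 5 written, summed to 12.02, 12.85 and 12.74 in knockdown replicates 1 to 3, against 11.15, 11.60, 11.44 and 12.88 in control replicates 1 to 4. Results that move with these arrays are also given below with single arrays left out, or without knockdown replicate 1 and control replicate 4. The latter fits keep knockdown replicate 2, with its endothelial, microglial, Ttr and ventral marker signal, so they are not free of it. In such bulk samples, fewer cells of a type and less RNA per cell cannot be told apart.

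No junction or polarity gene differed past the threshold, and the median difference of the set was near 0. By limma, the adjusted p was under 0.05 for 0 of the 40 members, as for all genes tested, of which 0% passed as higher and 0% as lower. At an unadjusted p under 0.05 there were 3 members, Vcl and Nectin1 higher and Pard6g lower in knockdown cells. That is 7.5% of members, against 5.81% of all genes (2.2% higher and 3.61% lower), which is close to the background. The groups did not overlap for 3 members, Afdn higher and Pard6g and Numa1 lower, against 5.67% of all genes (2.59% higher and 3.07% lower), again a similar share. Of the members, 20 were higher and 20 lower, against 49.8% and 50.2% of all genes, with a median log2 difference of 0.0025 against -0.0010 over all genes. Differences ran from -0.56 to 0.83, and the median size was 0.18 against 0.14 over all genes. For 32 of the 40 members the 95% interval lay within 1 log2 unit of 0 on both sides, so a 2-fold change of signal lay outside the interval for these. The same held for 16537 of all 19938 genes. RMA narrows differences between dim probe sets, such as those of Ocln and Insc. There the interval bounds the signal and not the transcript.

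**Figure D1:**
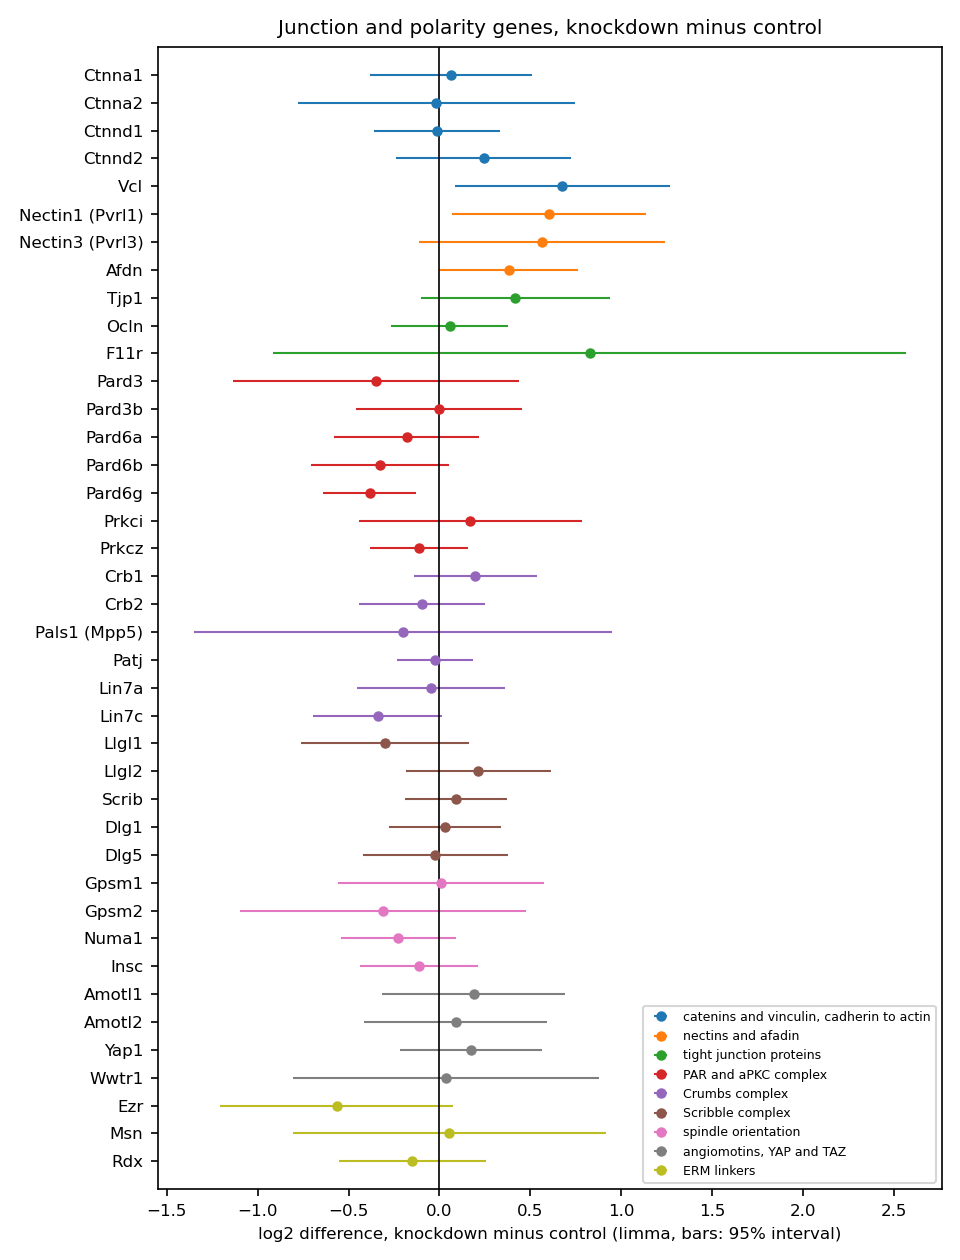
Log2 difference of each of the 40 members, knockdown minus control (point), with limma's 95% interval (bar), coloured by role from catenins at the top to ERM linkers at the bottom. Of the intervals, those of Vcl, Nectin1 and Pard6g lie clear of 0, F11r has the widest, and all 3 nectin and afadin genes lie right of 0.

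The members that link cadherins to actin differed little, apart from vinculin. Vcl, which encodes vinculin, an actin-binding protein recruited to junctions under tension, had log2 levels of 7.09, 7.05 and 6.34 in knockdown arrays, against 5.80, 5.97, 6.57 and 6.26 in control arrays. Knockdown replicates 1 and 2 were above every control array, while replicate 3 lay below control replicate 3. The difference was 0.68 (SE 0.25, 95% interval 0.08 to 1.27), with an unadjusted p of 0.0302 and an adjusted p of 0.825 by limma. The 2 arrays with the highest Vcl are also those with the most endothelial marker signal among knockdown arrays, at 10.8 and 9.52. Control replicate 4 had an endothelial sum of 10.1 and Vcl at 6.26. Control replicate 3 had a sum of 7.41 and Vcl at 6.57. The part of these cells in the Vcl values was not tested. Without knockdown replicate 1 and control replicate 4, the arrays with the most endothelial marker signal, the difference was 0.58 (unadjusted p = 0.131). The unadjusted p was also over 0.05 in the fits that left out control replicate 1 or 2 or knockdown replicate 1 or 2, at 0.0716 to 0.107. With array medians set equal it was 0.0512.

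The catenins themselves showed no common direction. Ctnna1, which encodes alpha-E-catenin, the main link from the cadherin complex to actin in epithelial cells, averaged 8.54 ± 0.40 in knockdown (SD, n = 3) and 8.48 ± 0.11 in control arrays (SD, n = 4), a difference of 0.06 (SE 0.19). Ctnna2, the neuronal alpha-catenin, had log2 levels of 5.93, 6.61 and 7.31 in knockdown arrays, against 6.21, 6.66, 6.72 and 6.94 in control arrays. The knockdown arrays lay on both sides of all controls, so the difference of -0.02 (SE 0.33) hides a wide spread. Ctnnd1, p120-catenin, which keeps cadherins at the surface, differed by -0.01 (SE 0.15). Ctnnd2, the neural delta-catenin, had a difference of 0.24 (SE 0.21), which was 0.05 when knockdown replicate 3 was left out.

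The 3 nectin and afadin genes among the members were all higher in knockdown cells, but none passed the test. Nectins are immunoglobulin-like adhesion molecules that start a junction, and afadin is the scaffold that ties them to actin. The median log2 difference of the 3 members was 0.57, against -0.0010 over all genes and -0.12 over the 6979 genes with a mean level over 6. Of the nectins measured among the partner genes, Nectin2 differed by -0.14 (SE 0.24) and Nectin4 by 0.11 (SE 0.12). Nectin1 had log2 levels of 6.14, 6.50 and 6.99 in knockdown arrays, against 5.78, 5.86, 6.32 and 5.81 in control arrays. Only control replicate 3 reached into the range of the knockdown arrays. The difference was 0.60 (SE 0.23, 95% interval 0.07 to 1.14), with an unadjusted p of 0.0320 and an adjusted p of 0.825 by limma. The unadjusted p was over 0.05 in the fits without control replicate 1, 2 or 4 or knockdown replicate 2 or 3 (0.0636 to 0.108) and with array weights (0.0731). Without knockdown replicate 3 the difference was 0.38.

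Nectin3 had log2 levels of 7.68, 7.47 and 7.21 in knockdown arrays, against 6.38, 7.45, 7.23 and 6.49 in control arrays. Control arrays fell into a lower and a higher pair, and the higher pair overlapped the knockdown arrays. The difference was 0.57 (SE 0.29, unadjusted p = 0.0886), and 0.32 without knockdown replicate 1 and control replicate 4. Afdn, the gene of afadin, had log2 levels of 8.33, 8.37 and 8.93 in knockdown arrays, against 8.18, 8.25, 8.13 and 8.09 in control arrays. All knockdown arrays lay above all controls, and replicate 3 was far above the other two. The difference was 0.38 (SE 0.16, 95% interval -0.0016 to 0.77, adjusted p = 0.825 by limma), and 0.19 without knockdown replicate 3.

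**Figure D2:**
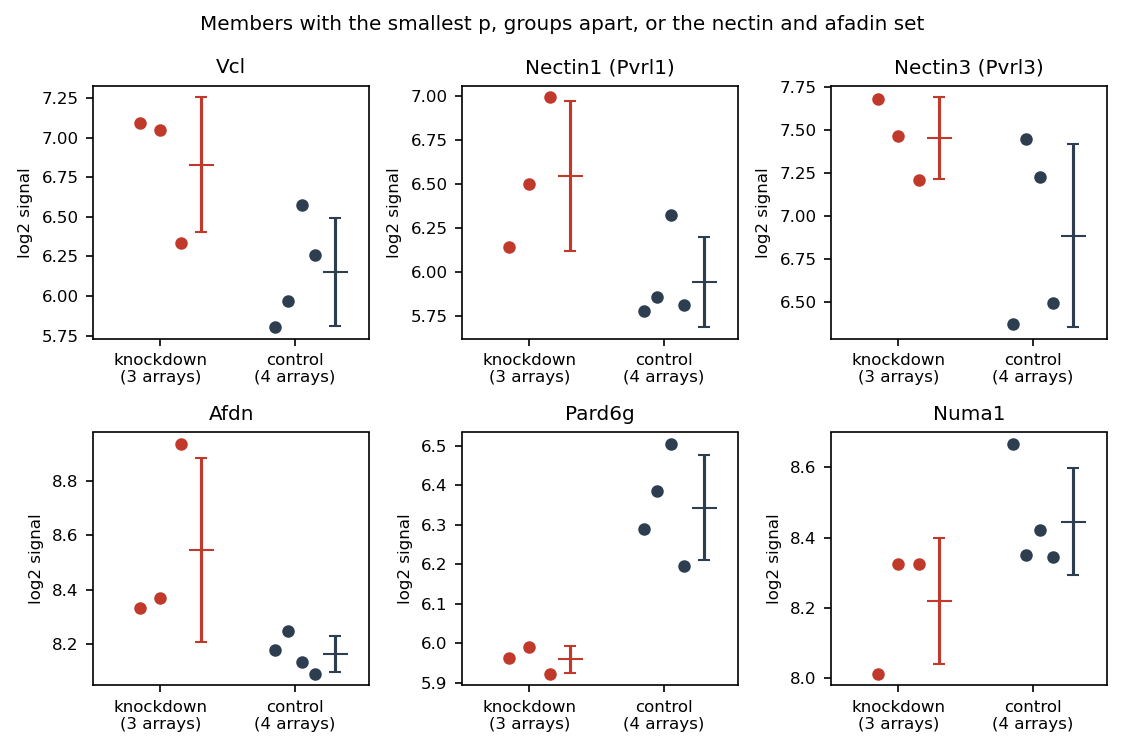
Log2 signal of 6 members in each array (points, 3 knockdown left and 4 control right of each panel), with the mean and SD beside them (horizontal mark and bar). Pard6g, Numa1 and Afdn have groups that do not overlap, and in Afdn and Nectin1 the highest point is knockdown replicate 3.

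The stretches before the start sites of Vcl, Nectin3 and Afdn are shown as examples of the vinculin, nectin and afadin genes described above, and were chosen after their values were seen. They come from RefSeq's promoter windows (build GRCm38.p6), which also hold other junction members. Each holds the 250 bases before a start site, 5′ to 3′ on the gene's strand. Capitals mark matches, on either strand, to the CArG box bound by serum response factor, to GGAATG, the core bound by TEAD factors, and to GGGCGG, the GC box. Vcl lies at chr14:20929148-20929397 on the plus strand, Nectin3 at chr16:46496968-46497217 on the minus strand and Afdn at chr17:13760291-13760540 on the plus strand.
Vcl: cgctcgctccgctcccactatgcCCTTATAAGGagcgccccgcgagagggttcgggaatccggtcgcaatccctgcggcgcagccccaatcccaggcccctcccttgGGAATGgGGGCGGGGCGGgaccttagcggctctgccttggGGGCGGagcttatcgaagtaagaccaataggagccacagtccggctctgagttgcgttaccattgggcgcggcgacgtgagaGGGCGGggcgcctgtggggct
Nectin3: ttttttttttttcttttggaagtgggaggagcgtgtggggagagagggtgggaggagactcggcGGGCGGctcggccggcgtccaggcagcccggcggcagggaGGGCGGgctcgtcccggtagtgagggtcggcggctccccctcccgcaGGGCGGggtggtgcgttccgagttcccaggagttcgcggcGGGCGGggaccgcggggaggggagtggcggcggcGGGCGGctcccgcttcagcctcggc
Afdn: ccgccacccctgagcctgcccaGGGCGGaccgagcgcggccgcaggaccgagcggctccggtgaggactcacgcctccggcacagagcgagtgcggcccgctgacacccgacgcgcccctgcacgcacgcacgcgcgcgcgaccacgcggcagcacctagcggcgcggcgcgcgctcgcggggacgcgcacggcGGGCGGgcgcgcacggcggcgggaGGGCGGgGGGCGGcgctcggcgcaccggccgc

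The window of Vcl held 1 CArG box, which began 227 bases before the start site, 1 GGAATG and 4 GC boxes, of which a neighbouring pair shares a base. The windows of Nectin3 and Afdn held only GC boxes, 5 and 4 of them. A promoter window was at hand for 34 of the 40 members, with 51 windows in all. Of these, 1 held a CArG box, 1.96% against 1.47% of all 32851 windows. GGAATG was in 8 member windows, 15.7% against 12.6% of all windows, and these belonged to Vcl, Numa1, Yap1, Wwtr1, Amotl2, Insc and Prkci. The GC box was in 30 member windows, 58.8% against 32.7%. These matches describe the letters and not binding.

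Among the tight junction genes, F11r had the largest difference of all members and the widest spread. F11r encodes the junctional adhesion molecule A of epithelial and endothelial cells, which blood cells also carry. Its log2 level was 6.44, 6.65 and 5.74 in knockdown arrays, against 4.54, 4.35, 5.35 and 7.54 in control arrays. Knockdown arrays lay above 3 of the controls and below control replicate 4. The difference was 0.83 (SE 0.74, 95% interval -0.91 to 2.57), and 1.53 without control replicate 4 (unadjusted p = 0.00337). Without knockdown replicate 1 and control replicate 4 it was 1.45. On the arrays kept in these fits, endothelial markers summed to 8.31 or more in knockdown and 7.79 or less in control arrays. Neither fit therefore compares groups with like endothelial marker signal. F11r was highest in control replicate 4 and in knockdown replicates 1 and 2, the same 3 arrays on which endothelial markers summed to 10.1, 10.8 and 9.52. Microglial markers were also highest in control replicate 4, at 11.8. The part of these cells in the F11r values was not tested.

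Tjp1, which encodes ZO-1, a scaffold shared by tight and adherens junctions, had log2 levels of 8.47, 8.21 and 7.58 in knockdown arrays, against 7.60, 7.74, 7.45 and 7.88 in control arrays. Knockdown replicates 1 and 2 were above all controls and replicate 3 was within them, as for Vcl. The difference was 0.42 (SE 0.22, unadjusted p = 0.0981), and it became 0.67 with knockdown replicate 3 left out and 0.23 with replicate 1 left out. The 3 highest arrays were again knockdown replicates 1 and 2 and control replicate 4, those with the most endothelial marker signal, and its part in the Tjp1 values was not tested. Without knockdown replicate 1 and control replicate 4 the difference was 0.30. Ocln, the gene of occludin, a tight junction protein that neuroepithelial cells lose early, had a dim probe set, at 3.32 ± 0.20 in knockdown (SD, n = 3) and 3.27 ± 0.14 in control arrays (SD, n = 4).

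**Figure D3:**
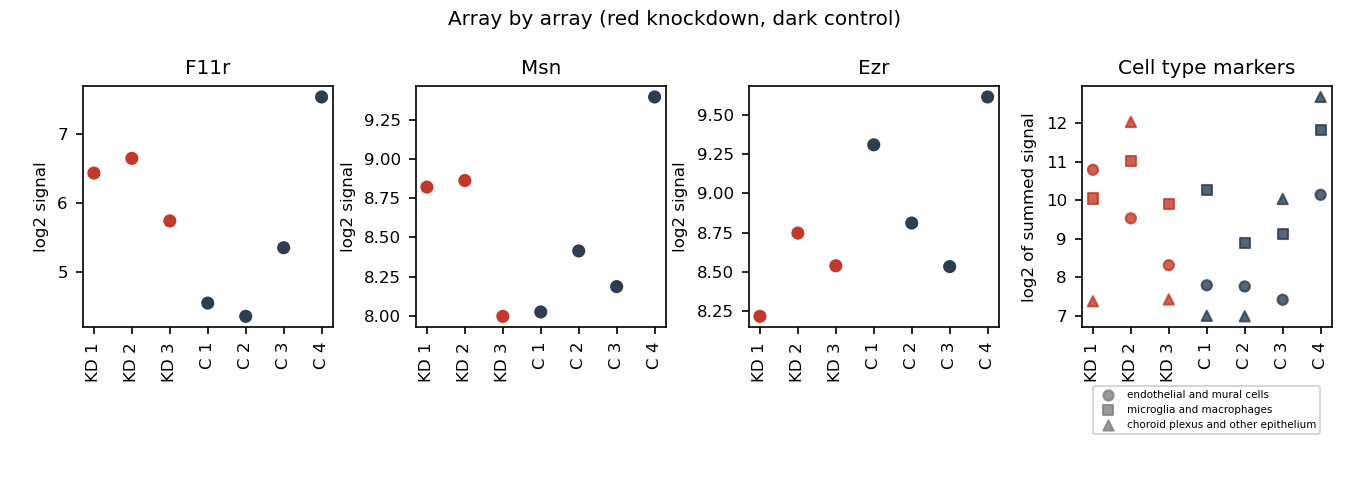
Log2 signal of F11r, Msn and Ezr in each array, and the log2 of the summed signal of markers of endothelial and mural cells (circles), microglia and macrophages (squares) and choroid plexus and other epithelium (triangles), with knockdown arrays (KD, red) left of control arrays (C, dark). Control replicate 4 is highest of all arrays for F11r, Msn, Ezr and the microglial markers, and knockdown replicate 1 has the most endothelial marker signal.

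The PAR and aPKC genes were lower in 6 of 7 cases, with a median log2 difference of -0.18. Of the 6979 genes with a mean level over 6, 4636 were lower, with a median of -0.12. Pard6g, one of the 3 PAR6 adaptors that bring aPKC to PAR3 and Cdc42, had the smallest p of all members. Its log2 level was 5.96, 5.99 and 5.92 in knockdown arrays, against 6.29, 6.39, 6.504 and 6.20 in control arrays. All knockdown arrays lay below all controls and close to each other. The difference was -0.38 (SE 0.11, 95% interval -0.64 to -0.13, 76.6% of the control signal), with an unadjusted p of 0.00926 and an adjusted p of 0.825 by limma. With 1 array left out it ranged from -0.43 to -0.33, and the unadjusted p stayed under 0.05 in each of those fits, but with an intensity trend in the variance it was 0.0527.

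The related adaptors Pard6b and Pard6a differed by -0.33 (SE 0.16) and -0.18 (SE 0.17). For Pard6b the difference became -0.49 when knockdown replicate 1 was left out, and -0.17 when replicate 2 was. Pard3, the scaffold that gathers the complex at junctions, averaged 6.48 ± 0.12 in knockdown (SD, n = 3) and 6.83 ± 0.66 in control arrays (SD, n = 4). Control replicate 1, at 7.80, stood above the other controls at 6.36 to 6.62, and without it the difference of -0.35 became -0.02. The paralog Pard3b differed by -0.0034 (SE 0.19), with the identical deposited level of 4.866 on 4 of the 7 arrays.

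Of the atypical protein kinases C, Prkci, whose kinase works with PAR3 and PAR6, differed by 0.17 (SE 0.26). Prkcz differed by -0.11 (SE 0.11) at the probe set used. Another Prkcz probe set differed by 0.40, so the direction depended on the probe set, while the second Pard3b set differed by -0.15.

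The Crumbs complex genes showed small differences except for a pair with wide or uneven spread. Crb1 and Crb2, the transmembrane proteins that name the complex, differed by 0.20 (SE 0.14) and -0.10 (SE 0.15). Pals1, the adaptor that binds Crumbs, had log2 levels of 6.67, 7.03 and 5.53 in knockdown arrays, against 5.48, 7.03, 7.04 and 6.90 in control arrays. One array of each group, knockdown replicate 3 and control replicate 1, was over 1 log2 unit below most others. The difference was -0.20 (SE 0.49), and -0.58 without control replicate 1 but 0.24 without knockdown replicate 3. Patj, the multi-PDZ scaffold of the complex, differed by -0.02 (SE 0.09) and had the identical deposited level of 4.552 on 4 of the 7 arrays.

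The small PDZ adaptors Lin7c and Lin7a bind Pals1. Lin7c had log2 levels of 9.24, 9.60 and 8.98 in knockdown arrays, against 9.64, 9.63, 9.60 and 9.59 in control arrays. The controls were almost equal, and the knockdown arrays were below them but for replicate 2, which fell among them. The difference was -0.34 (SE 0.15, unadjusted p = 0.0590), and with knockdown replicate 2 or 3 left out it was -0.50 or -0.19. Quantile and cyclic loess normalization each gave -0.21. Lin7a differed by -0.05 (SE 0.18).

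The Scribble complex genes did not differ beyond their spread. Scrib, the scaffold, differed by 0.09 (SE 0.12), Dlg1 by 0.03 (SE 0.13) and Dlg5 by -0.02 (SE 0.17), Dlg genes encoding membrane-associated guanylate kinases. The intervals of these 3 genes reached no further than -0.42 and 0.38. Llgl1, a target of aPKC that is kept off the apical membrane and whose loss disturbs the polarity of mouse neural progenitors, had log2 levels of 6.65, 6.32 and 5.81 in knockdown arrays, against 6.58, 6.69, 6.43 and 6.55 in control arrays. Knockdown replicates 2 and 3 lay below all controls. The difference was -0.30 (SE 0.20), and it depended on knockdown replicate 3, without which it was -0.08. The paralog Llgl2 had a difference of 0.21 (SE 0.17), which was 0.07 with knockdown replicate 1 left out.

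Genes that orient the spindle were lower in 3 of 4 cases, with a median of -0.17, against -0.12 over the 6979 genes with a mean level over 6. Numa1, which anchors dynein to the cell cortex, had log2 levels of 8.01, 8.32 and 8.32 in knockdown arrays, against 8.67, 8.35, 8.42 and 8.34 in control arrays. All knockdown arrays lay below all controls, though knockdown replicates 2 and 3 lay only just below the lowest. The difference was -0.23 (SE 0.14, unadjusted p = 0.137, adjusted p = 0.825 by limma), and -0.09 after cyclic loess normalization. Gpsm2, the LGN adaptor between Numa1 and G proteins, had log2 levels of 5.86, 7.26 and 6.21 in knockdown arrays, against 6.498, 7.18, 6.73 and 6.61 in control arrays. Knockdown replicates 1 and 3 were below all controls and replicate 2 above all, so the difference of -0.31 (SE 0.34) became -0.72 with replicate 2 left out and -0.02 with replicate 1 left out. Its paralog Gpsm1 differed by 0.01 (SE 0.24), with knockdown arrays at 5.99, 6.70 and 7.07. Insc, the Inscuteable adaptor that joins the spindle machinery to PAR3, had a dim probe set and differed by -0.11 (SE 0.14).

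The Hippo effectors and angiomotins were all slightly higher, by 0.04 to 0.19. Yap1, the gene of YAP, averaged 7.11 ± 0.31 in knockdown (SD, n = 3) and 6.94 ± 0.14 in control arrays (SD, n = 4), a difference of 0.17 (SE 0.17), with knockdown replicate 1 at 7.47 above all others. Without that array the difference was -0.0053. Wwtr1, the gene of TAZ, had log2 levels of 8.23, 7.35 and 6.99 in knockdown arrays, against 8.19, 7.44, 7.09 and 7.21 in control arrays. One array of each group stood above the rest, and the difference was 0.04 (SE 0.36). Amotl1 and Amotl2, angiomotin-like proteins that bind YAP at junctions, differed by 0.19 (SE 0.21) and 0.09 (SE 0.21). They were lowest in control replicate 4, and without it the differences were 0.03 and -0.09.

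Of the ERM linkers, Ezr had the lowest difference of all members. Ezr, which encodes ezrin, had log2 levels of 8.22, 8.75 and 8.54 in knockdown arrays, against 9.31, 8.81, 8.53 and 9.61 in control arrays. Control replicates 1 and 4 were above the rest, and control replicate 3 was at the level of the knockdown arrays. The difference was -0.56 (SE 0.27, 95% interval -1.21 to 0.08, 67.6% of the control signal), with an unadjusted p of 0.0759 and an adjusted p of 0.825 by limma. It was -0.38 without control replicate 4 and -0.24 without knockdown replicate 1 and control replicate 4. Control replicate 4 also had the highest marker sums for microglia (11.8) and for choroid plexus and other epithelium (12.7). Most of the latter came from the choroid plexus marker Ttr, at 12.55 on that array. The choroid plexus and epithelium sum was 12.03 in knockdown replicate 2, where Ezr was 8.75. That sum was 6.99 in control replicate 1, where Ezr was 9.31. The part of these cells in the Ezr values was not tested. Msn, the gene of moesin, the ERM protein of endothelial and blood cells among others, was at 8.82, 8.86 and 7.996 in knockdown arrays, against 8.02, 8.41, 8.19 and 9.40 in control arrays. As for F11r, the 3 highest arrays were control replicate 4 and knockdown replicates 1 and 2. The difference of 0.06 (SE 0.37) was 0.35 without control replicate 4. Rdx, the gene of radixin, had a difference of -0.15 (SE 0.17), which was 0.02 with knockdown replicate 3 left out.

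**Figure D4:**
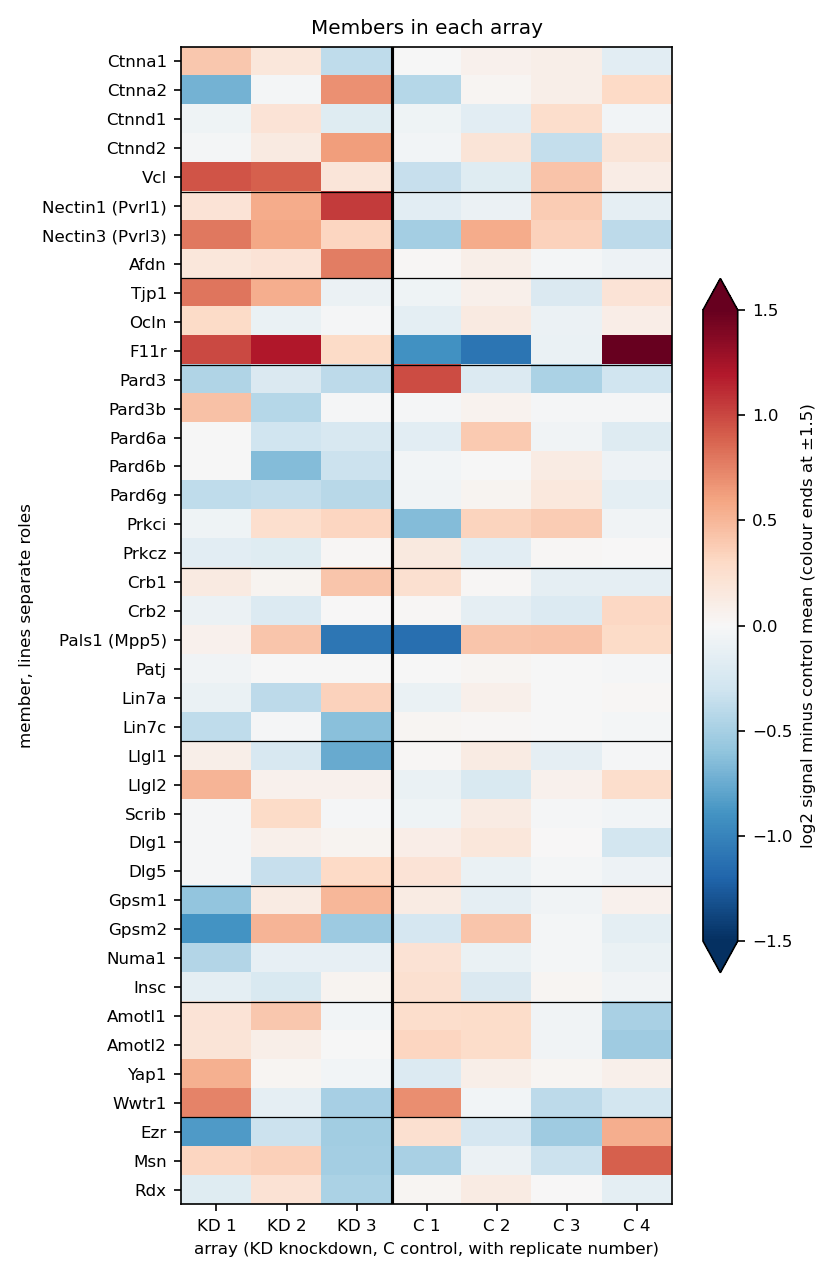
Log2 signal of each member in each array minus its control mean (red higher, blue lower, colour ends at ±1.5), with knockdown arrays (KD) left of control arrays (C) and lines between roles. Pard6g is blue on all 3 knockdown arrays, the nectin and afadin rows are red on all 3, and Ctnna2, Pals1, Gpsm1 and Gpsm2 show opposite signs within the knockdown group.

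Knockdown arrays were the more variable group for 26 of the 40 members, 65% against 56.4% of all genes. The members' median deviation from the control mean was -0.01, 0.06 and -0.01 in knockdown replicates 1 to 3, against -0.03, 0.04, -0.02 and -0.04 in control replicates 1 to 4, so no array stood apart in the set as a whole. By role the junction genes and the polarity complexes lay on different sides. Of the 11 catenin, vinculin, nectin, afadin and tight junction genes 9 were higher, with a median difference of 0.38, and of the 18 PAR, Crumbs and Scribble genes 13 were lower, with a median of -0.07. Over all genes 49.8% were higher. Of the 6979 genes with a mean level over 6, 4636 were lower, with a median of -0.12. The difference between these roles was not tested.

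Partner genes of the members were described from 6 lists written beside the members, which hold 124 further measured genes. By limma 0 had an adjusted p under 0.05. At an unadjusted p under 0.05 there were 5 higher and 4 lower, against 2.2% and 3.61% of all genes. Of the 124 partners 71 were higher, against 49.8% of all genes. The groups did not overlap for 8 partners, against 5.67% of all genes, and nothing is read from these counts. Apart from Cdh2, Ctnnb1, Cldn5 and Esam, the partners named below were picked for a small p, which favours groups that do not overlap. The adherens junction partners were higher in 15 of 24 cases, with a median difference of 0.11. Cdh11, a mesenchymal type II cadherin, had log2 levels of 6.67, 6.49 and 7.16 in knockdown arrays, against 6.25, 6.03, 5.71 and 5.74 in control arrays. The groups did not overlap, and the difference was 0.84 (SE 0.20, unadjusted p = 0.00411, adjusted p = 0.825 by limma). Ajuba, a LIM protein of junctions that restrains the Hippo kinases, differed by 0.50 (SE 0.15), and Sorbs2, a vinculin-binding adaptor, by -0.60 (SE 0.15), both with groups that did not overlap. N-cadherin (Cdh2) and beta-catenin (Ctnnb1), the core of the cortical adherens belt, differed by -0.15 (SE 0.098) and -0.07 (SE 0.099), and the groups did not overlap for Cdh2.

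The tight junction partners were higher in 14 of 18 cases, with a median of 0.08, against 49.8% of all genes higher. The higher genes include Cldn5, by 0.76 (SE 0.58), and Esam, by 0.88 (SE 0.80), which are also among the endothelial and mural markers. The part of these cells in the count was not tested. Magi3, a membrane-associated guanylate kinase, differed by 0.49 (SE 0.19), Cldn12 by 0.77 (SE 0.34) and Cldn3 by -0.48 (SE 0.25), the last pair being claudins. The polarity complex partners split into 12 higher and 13 lower, with Arhgap35, the p190 RhoGAP, at -0.57 (SE 0.18) and groups that did not overlap, Tiam1, a Rac exchange factor that binds PAR3, at 0.39 (SE 0.17) and Dlg4 at 0.25 (SE 0.15). Spindle orientation partners split evenly, 8 against 8. Htt, the gene of huntingtin, and Nin, the gene of the centrosomal protein ninein, were higher by 0.60 (SE 0.20) and 0.50 (SE 0.18), without overlap, and the mitotic kinase Aurka differed by -0.73 (SE 0.41).

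Of the Hippo genes and YAP targets 12 were higher and 13 lower. Mob1b, a cofactor of the LATS kinases, differed by -0.53 (SE 0.20), the upstream scaffold Wwc1 by -0.41 (SE 0.18) and the kinase Lats2 by -0.31 (SE 0.14). In the list of ERM partners and apical actomyosin 10 of 16 were higher, while the smallest p belonged to lower genes: Prom1, prominin of apical membrane protrusions, at -0.47 (SE 0.17) with groups that did not overlap, the GTPase Rhoa at -0.34 (SE 0.16) and the myosin light chain Myl12b at -0.34 (SE 0.17).

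**Figure D5:**
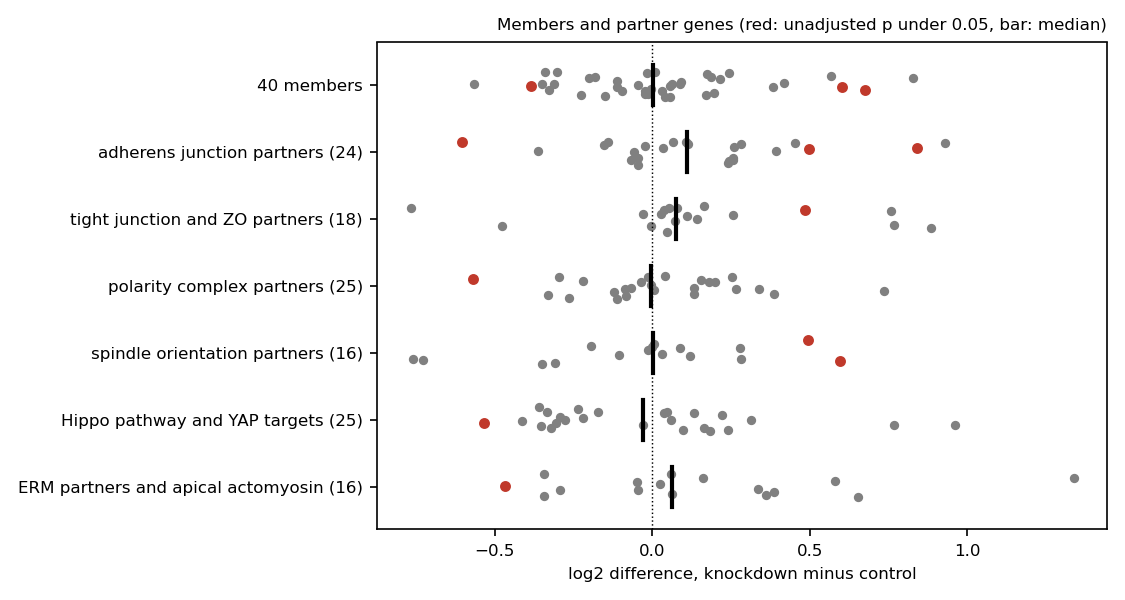
Log2 difference, knockdown minus control, of the 40 members (top) and of the partner genes in 6 lists (each point a gene, number of genes in brackets), with unadjusted p under 0.05 in red and the median as a bar. Medians lie between -0.03 and 0.11, and red points occur on both sides.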

How the data were processed

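RNA of sorted cortical cells was amplified with a whole-transcriptome kit and hybridised to 1 array per sample, per the labels' protocols. The authors deposited log2 values. The submitters' processing notes name RMA and Affymetrix Expression Console 1.2 and no genome build. RMA corrects background and sets array quantiles equal, and it narrows differences between dim probe sets. Of 35556 probe sets, 21789 had 1 gene symbol, updated through Entrez identifiers in RefSeq's GRCm38.p6 gene table. Promoter sequences come from RefSeq's windows of that build.

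Knockdown and control arrays were compared with limma 3.58.1 (R 4.3.3, lmFit and eBayes without trend, two-sided, no covariates) on 19938 genes. P-values were adjusted over all of them by Benjamini-Hochberg, with a threshold of 0.05, and SEs and intervals are limma's. Arrays have no count depth, so their number limits the precision. On simulated data for this comparison with 19938 genes, 50.6% of genes given a change of 1 log2 unit passed, and 86.4% of genes given 2. The simulated noise was independent between genes, without array differences shared by many genes, such as those in cell type markers. The shares therefore need not hold for the real arrays. Same-numbered knockdown and control arrays were not treated as pairs, since the labels do not say that a number marks a shared litter or day. Their deviations from the group means correlated at 0.03, -0.05 and 0.07 across genes. Differently numbered arrays reached -0.196 and 0.140, and with so few arrays such values cannot show whether pairs exist.

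The members and lists were chosen with earlier results of these data known. All members are named and, of each partner list, the 3 genes with the smallest p. Cdh2, Ctnnb1, Nectin2, Nectin4, Cldn5 and Esam were named outside this rule, after their values were seen. Alternatives covered the variance model, array weights, normalization, a filter on dim genes, the mean over probe sets, the replicate block and each array left out. Leaving out knockdown replicate 1 and control replicate 4 together was added after seeing the data.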

Additional observations from a re-analysis of the deposited data

Results flagged for a closer look

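In 4 of the 40 members 1 control array lay far from the other 3, where chance alone flags about 1 in 20 groups. Nectin1 was at 6.32 in control replicate 3, against 5.86 or less on the other controls. Pals1 was at 5.48 in control replicate 1, against 6.90 or more. Pard3b was at 4.93 in control replicate 2, with the other 3 controls all at 4.87, and Patj was at 4.59 in control replicate 2, next to 4.55. In the last 2 genes the whole control range was 0.07 or less.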

How the results depend on the processing

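The 17 alternatives gave 0 members with an adjusted p under 0.05, and 21 of the 40 members kept their direction in all of them. At an unadjusted p under 0.05, cyclic loess normalization gave 5 higher members (Vcl, Nectin1, Nectin3, Afdn and Tjp1), against 2.42% of all genes (482). Equal array medians gave 1 higher and 3 lower (Nectin1, with Pard6g, Lin7c and Ezr lower). An intensity trend gave 0 lower, against 2.94% of all genes (587). Array weights gave 2 lower (Pard6g and Lin7c), and leaving out knockdown replicate 1 and control replicate 4 gave 3 lower (Pard6b, Pard6g and Llgl1). Nothing is read from these counts. With 1 array left out the counts ran from 0 to 2 higher and from 1 to 3 lower. Over all genes, equal medians gave 231 higher and 1033 lower, against 439 and 719. The share of all genes that the members are read against also rests on single arrays: without knockdown replicate 2 it was 4.42% higher (882 genes) and 7.63% lower (1522 genes), and without knockdown replicate 1 or 3 the lower genes numbered 469 or 476. The median difference of the members was -0.063 with equal medians (all genes -0.067), 0.044 with quantile and 0.073 with cyclic loess normalization, and -0.022 to 0.039 with 1 array left out. By the labels, same-numbered arrays share only a number. With the replicate block, 2 members were higher and 1 lower, and 644 and 842 of all genes. Vcl was then at 0.71, with an unadjusted p over 0.05.

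Small differences changed sign, and the cause was not tested. With array weights Pard3b was at 0.035, Dlg1 at -0.015 and Gpsm1 at -0.043. With equal medians Ctnna1 was at -0.0017, Ocln at -0.0098, Dlg1 at -0.034, Gpsm1 at -0.057, Wwtr1 at -0.027 and Msn at -0.011. Quantile normalization put Ctnna2 at 0.024, Ctnnd1 at 0.067 and Dlg5 at 0.048, and cyclic loess put them at 0.048, 0.108 and 0.074. The mean over probe sets put Prkcz at 0.146. With the replicate block Ctnna2 was at 0.083, Crb2 at 0.0090, Dlg1 at -0.061, Amotl2 at -0.089 and Wwtr1 at -0.052. Without knockdown replicate 1 and control replicate 4, Ctnna1 was at -0.158, Ctnna2 at 0.428, Ocln at -0.023, Crb2 at 0.0050, Dlg1 at -0.034, Amotl2 at -0.138 and Wwtr1 at -0.406.

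With each array left out in turn, 18 members changed sign. Their differences ranged for Ctnna1 from -0.106 to 0.285, Ctnna2 from -0.367 to 0.327, Ctnnd1 from -0.123 to 0.073, Ocln from -0.057 to 0.133, Pard3b from -0.224 to 0.210, Prkci from -0.047 to 0.296, Crb2 from -0.162 to 0.009, Pals1 from -0.578 to 0.241, Lin7a from -0.242 to 0.124. The others were Scrib from -0.012 to 0.140, Dlg1 from -0.061 to 0.089, Dlg5 from -0.185 to 0.140, Gpsm1 from -0.234 to 0.307, Amotl2 from -0.089 to 0.196, Yap1 from -0.0053 to 0.283, Wwtr1 from -0.314 to 0.305, Msn from -0.105 to 0.353 and Rdx from -0.329 to 0.016.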
